A study of Mus musculus with 42 samples.

Results

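The 9 genes described here build or maintain central myelin or control the cells that make it. They were taken by gene symbol from the brain footprinting table: Mbp, Mog, Mag, Mobp, Cnp, Cldn11, Ugt8a, Opalin and Sox10. All 9 were found, among 50765 genes in that table, and all 9 passed the filter on low values in every comparison. They were picked by symbol and not by a cut on measured values, though with earlier results of these data known.

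Oligodendrocytes wrap axons of the brain in a membrane spiral, the myelin sheath, which insulates the axon and speeds conduction. Compact myelin is held together by basic proteins on the cytoplasmic face, such as MBP, while CNP keeps cytoplasm-filled channels open between the layers. The mRNAs of Mbp and Mobp are carried along oligodendrocyte processes and translated near the sheath, so that ribosome occupancy and mRNA level are both read out in myelin biology. SOX10 is the lineage transcription factor that drives many of these genes.

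PCIF1 methylates an adenosine placed first after the mRNA cap, giving m6Am. The mutant line carries a small Cas9 deletion from an exon of Pcif1 into the following intron, which takes away catalytic residues and creates a premature stop codon, in every cell of the animal. Embryos of the B6D2F1/J hybrid (C57BL/6J by DBA/2J) were edited, and 1 line was kept after crossing founders to C57BL/6J. Adult brains of 3 wild-type (WT) and 3 Pcif1 knockout (KO) mice, with no other allele or treatment named, were lysed with cycloheximide, which holds ribosomes in place. Part of each lysate was digested with RNase I to leave ribosome-protected fragments (footprints), and another part gave total RNA (input). The experiment thus has 4 groups of 3 libraries: WT input, KO input, WT footprint and KO footprint. The labels do not say which input and footprint library came from 1 mouse, and replicate numbers below follow accession order only.

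The deposited value of a gene is a scaled signal, and how it was scaled was not given. Only 7.72 to 15.5% of the nonzero values in a library were whole multiples of the commonest low value. Read numbers below are therefore rough estimates. Judged from the commonest lowest value, taken as 1 read, inputs held about 15171376 to 17443754 gene reads, except KO replicate 2 with 5528739, and footprint libraries 13613503 to 16559686. On that estimate, Mbp rested on 4638 to 13817 reads per input library, but Opalin on 35 to 113 and Sox10 on 27 to 97. The lowest estimates were those of KO input replicate 2. Brain markers were detected: all 10 neuron, 7 astrocyte and 7 microglia markers had signal in every group. Pcif1 itself gave 252.6, 318.3 and 387.7 in WT inputs and 254.5, 200.7 and 259.4 in KO inputs, which overlap. The deletion is small, so the signal of the whole gene checks no label. WT footprint replicate 2 stood apart. Over 14377 genes, the log2 difference between WT footprint replicate 2 and the other WT footprint libraries had an SD of 1.14 and 1.09, against 0.872 between those other WT libraries and 0.966 to 1.00 between it and the KO libraries. The transcript model AY036118 gave 6042885 and 2813992 in WT footprint replicates 1 and 3 and was listed at 0 in WT replicate 2 and in the KO footprint libraries. Annotated rRNA took 49.9 and 58.7% of the signal in those WT replicates 1 and 3, 74.4% in WT replicate 2 and 67.6 to 72.6% in KO. With AY036118 added to the rRNA the share was 72.6 to 75.7% in the 3 WT libraries and 67.6 to 72.6% in the 3 KO libraries. The labels do not say which footprint libraries were prepared together. Results on footprints are therefore given with and without that library, shown as an open circle in the plot of signal by library.

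Because m6Am needs an adenosine at the transcript's first position, the annotated starts come first. RefSeq windows on GRCm38.p6 matched 7 of the 9 genes by symbol, with 9 windows in all. The first base was A in 5 of these 9 windows (Cnp, Mobp, Opalin and a pair for Mag) and in 34.4% of the 32851 windows of the table. The start used in brain was not measured here. The 30 bases below run 5′ to 3′, with 20 before and 9 after the annotated first base, which is the capital letter.
Mag (chr7:30914854-30914883, minus strand): ctgggagcccaagggactgtAagcccggcc
Mobp (chr9:120149722-120149751, plus strand): ctcgtgtactgaggtcgcccAgctccacca
Cnp (chr11:100574919-100574948, plus strand): tgtccgcgcgccccgcccccAggctatgaa
Opalin (chr19:41077104-41077133, minus strand): cctgcctccccatcgctcccAgctggtgcc
Cldn11 (chr3:31149900-31149929, plus strand): cccgggccccggagtttaaaGagggggcgg
Ugt8a (chr3:125938643-125938672, minus strand): gggggcggggcgcgcggggcCcggcggagg
Mog (chr17:37023389-37023418, minus strand): aatggatctgtagtccttttGtacaaatat
The other Mag windows began with A and with C. None of the 9 genes lies on chromosome 2, which carries Pcif1 in the same table. Whether DBA/2J sequence from the hybrid embryos remained on other chromosomes was not examined.

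Since SOX10 is among the genes, the 250 bases before each start were searched on both strands for the SOX core letters ACAAAG and ACAATG; overlapping matches were all counted. Matches lay in the windows of Mobp, Cnp, Opalin and Mag, and in 25.2% of all windows. Mobp held 6, all ACAAAG read on the strand opposite the gene, with the 5′-most base of each between 243 and 120 bases before the start. It was the only window of the 32851 with at least 6, a threshold taken from Mobp itself. The upstream sequence of Mobp (chr9:120149492-120149741, plus strand) is printed with these matches in capitals, as CTTTGT.
Mobp upstream: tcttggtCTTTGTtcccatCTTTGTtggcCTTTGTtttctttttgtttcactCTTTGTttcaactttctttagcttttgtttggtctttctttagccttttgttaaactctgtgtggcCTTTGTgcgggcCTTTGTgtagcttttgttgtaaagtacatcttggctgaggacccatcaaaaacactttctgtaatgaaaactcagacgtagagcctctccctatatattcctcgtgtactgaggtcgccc
A match of letters is a description and not a binding site.

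The first comparison asks whether myelin mRNA levels differ in brain without PCIF1. All 9 genes had a higher mean log2 input signal in KO than in WT, or 8 with every library set to 1 protein-coding total, where that of Mag was just lower. None passed the test over all genes, in which limma called 0.255% (0.176% higher, 0.0784% lower), while 6 had an unadjusted p below 0.05, as did 10.5% of all genes. In 6 genes, Mbp, Mog, Mobp, Cnp, Cldn11 and Ugt8a, each KO library lay above each WT library, which held for 10.6% of the 15298 genes tested. The differences of these 6 were between 0.40 and 0.73 on the log2 scale, and those of Mag, Opalin and Sox10 between 0.03 and 0.13. The median of the 9 was 0.41, against 0.02 over all genes tested. With 3 libraries against 3, an exact permutation test of 1 gene cannot go below p = 0.1, the two-sided value of every non-overlapping gene. In whole brain RNA, more oligodendrocytes and more myelin RNA per oligodendrocyte cannot be told apart. Nor can a difference in library preparation, if there was one, be told apart from genotype in input, where AY036118 also differed.

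**Figure D1:**
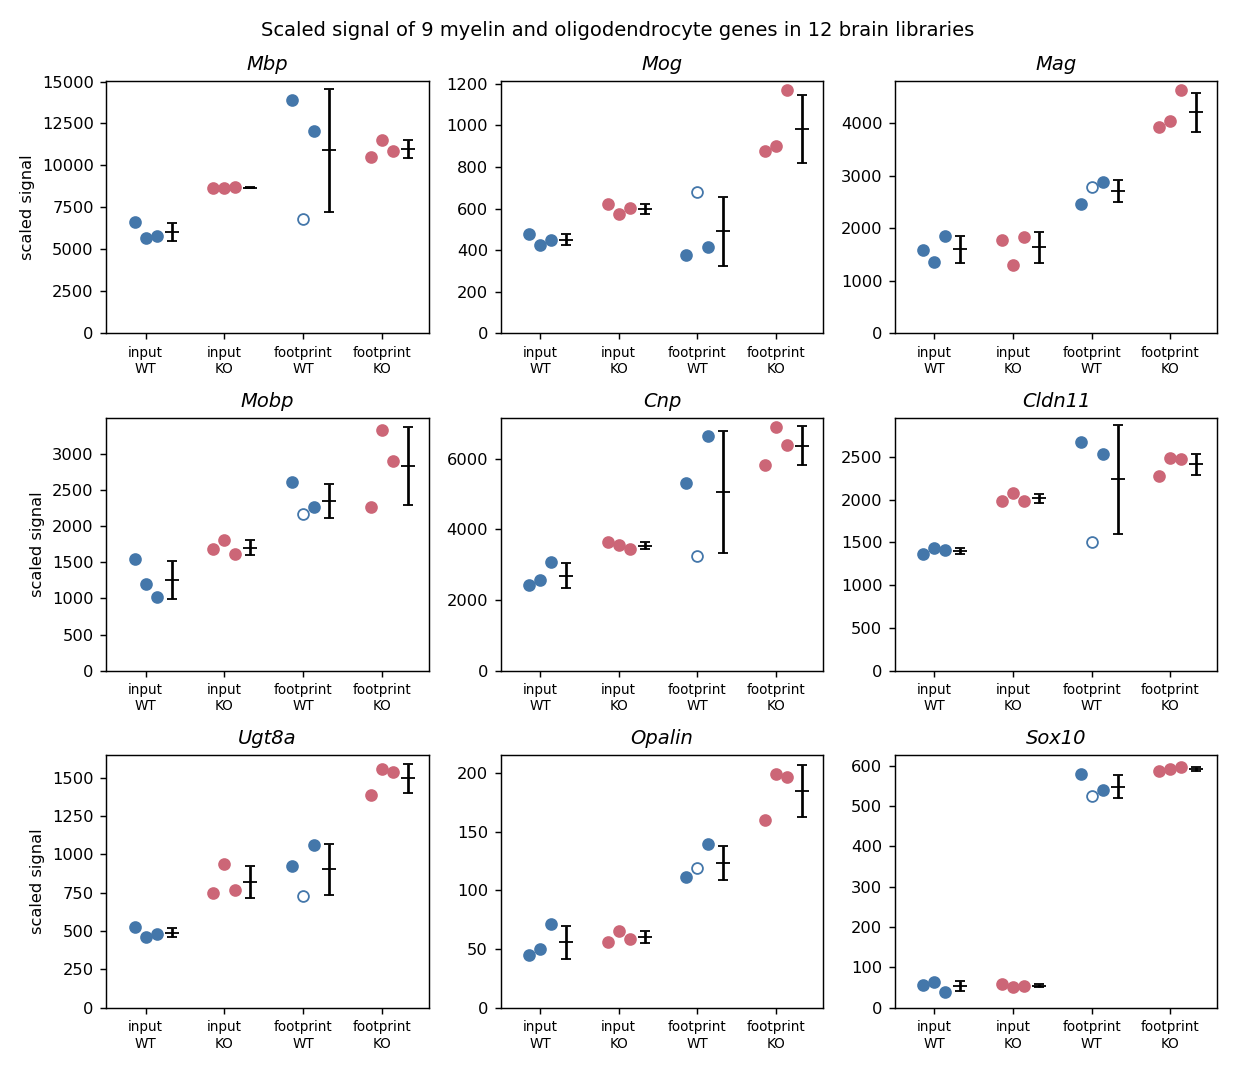
Scaled signal (linear axis from 0) of the 9 genes in each library of WT (blue) and KO (red) input and footprint; points are libraries, the black bar is the mean ± SD (n = 3), and the open circle is WT footprint replicate 2. Input signals of Mbp, Cldn11 and Ugt8a do not overlap between genotypes, and in WT footprints Mbp spans 6808 to 13872.

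Ugt8a, the galactosyltransferase that makes the myelin lipid galactosylceramide, had the largest input difference of the 9. The WT inputs read 525.6, 463.8 and 480.0, and the KO inputs 749.3, 939.0 and 767.5. The lowest KO library exceeded the highest WT library, with means of 489.8 ± 32.0 and 818.6 ± 105 (SD, n = 3). The log2 difference was 0.73 ± 0.115 (SE), with a Benjamini-Hochberg adjusted p of 0.096 by limma.

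Among the structural proteins, Mbp (chromosome 18) gave 6660, 5661 and 5799 in WT inputs against 8684, 8645 and 8738 in KO inputs. The KO libraries lay close together and above WT, 1.44 times the WT mean. The log2 difference was 0.53 ± 0.0844 (SE, limma adjusted p = 0.101). Cldn11, the claudin of the tight junctions between myelin layers, gave 1359, 1435 and 1407 in WT inputs against 1980, 2077 and 1986 in KO inputs. Its WT and KO libraries did not overlap, and the ratio of means was again 1.44. This was the nearest of the 9 to the threshold, at 0.52 ± 0.0697 (SE) and a limma adjusted p of 0.0522. With a pseudocount of 8 it passed, at an adjusted p of 0.048 by limma.

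Mobp, a small basic protein of compact myelin, gave 1544, 1199 and 1024 in WT inputs against 1689, 1814 and 1615 in KO inputs. WT replicate 1 came near the lowest KO library, and the log2 difference was 0.46 ± 0.151 (SE). Cnp, the cyclic nucleotide phosphodiesterase of non-compact myelin, gave 2418, 2573 and 3080 in WT against KO values of 3642, 3543 and 3438, a log2 difference of 0.40 ± 0.103. Mog, an immunoglobulin-domain protein on the outermost lamella, gave 480.0, 425.3 and 447.5 in WT against KO values of 620.8, 573.0 and 604.7, a log2 difference of 0.41 ± 0.0895. All 3 were higher in each KO library than in any WT library. Their limma adjusted p was 0.386 for Mobp, 0.277 for Cnp and 0.215 for Mog.

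The remaining 3 genes overlapped between genotypes in input. Mag, the adhesion protein of the innermost lamella that faces the axon, gave 1583, 1358 and 1860 in WT inputs against 1783, 1296 and 1836 in KO inputs. KO replicate 2 was the lowest of the 6. Its difference of 0.03 had a 95% interval from -0.38 to 0.43, so a change as large as that of Cnp lies inside it. Opalin, a transmembrane glycoprotein of paranodal loops, gave 45.2, 50.3 and 71.7 in WT inputs against 56.0, 65.8 and 58.9 in KO inputs. For Sox10 the WT inputs read 57.5, 63.1 and 39.1, and the KO inputs 59.5, 50.8 and 54.2. WT replicate 3 held the highest Opalin and the lowest Sox10 value of the 6. The 95% intervals were -0.39 to 0.66 for Opalin and -0.47 to 0.61 for Sox10, the genes with the fewest estimated reads.

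Set beside the annotated first base, the 3 genes with no A-starting window (Ugt8a, Cldn11 and Mog) had input differences of 0.73, 0.52 and 0.41. The 4 genes with an A-starting window (Mobp, Cnp, Opalin and Mag) had 0.46, 0.40, 0.13 and 0.03. The groups were not tested against each other, and Mbp and Sox10 had no window here.

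The summed input signal of the 9 genes was 13229 to 14672 in WT and 19004 to 19265 in KO, or 0.306 to 0.345% and 0.431 to 0.441% of all protein-coding signal. Other cell types were read in the same libraries. Summed neuron markers overlapped (25463 to 26993 in WT, 26228 to 27747 in KO). The astrocyte sum was 14604 to 15952 in WT and 16994 to 17594 in KO, of which the glutamate transporter gene Slc1a2 gave a mean of 6802 and 8308, while Aldh1l1 was lower in each KO library and the list's median difference was 0.08. The microglia sum was 1215 to 1324 in WT and 954 to 1082 in KO, with a median of -0.31. Of the 10, 7 and 7 genes of these lists 0 passed limma's test (2, 1 and 3 at an unadjusted p below 0.05, beside the 10.5% of all genes). Their part in the myelin values was not tested.

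**Figure D2:**
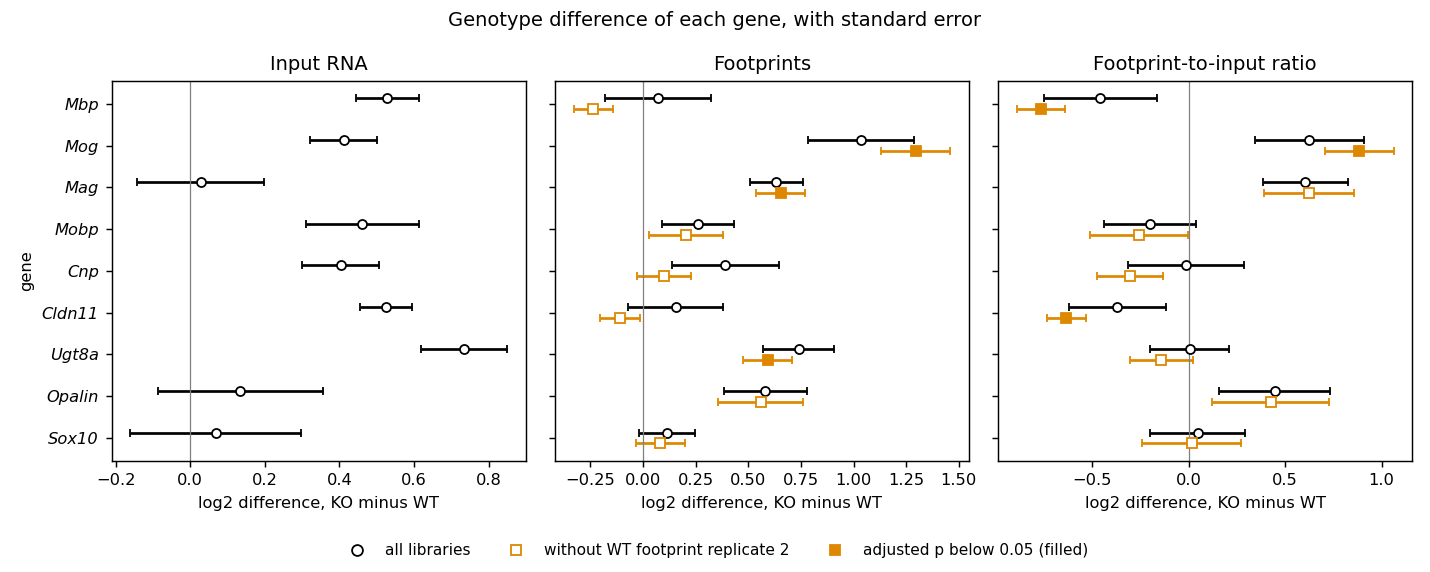
Log2 difference (KO minus WT, x axis) of each gene in input, footprints and footprint-to-input ratio, ± SE; black circles use all libraries, orange squares leave out WT footprint replicate 2, and filled symbols have limma adjusted p below 0.05. All 9 input differences lie above 0 with open symbols (8 with equal protein-coding totals, without Mag), and Mbp, Cldn11 and Mog are filled in the ratio panel without that library.

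Footprints ask how many ribosomes were on these mRNAs. In KO all 9 genes again had the higher mean log2 signal, or 7 without WT replicate 2 (not Mbp and Cldn11). Again none passed over all genes, where limma called 0.223% of 14377. An unadjusted p below 0.05 was reached by 4, and by 10.8% of all genes. The genes without overlap were partly other ones: in Mog, Mag, Ugt8a, Opalin and Sox10 each KO footprint library lay above each WT library, as in 8.46% of all genes tested. Ugt8a and Mog are the only 2 of the 9 for which this held in input and in footprints alike. The share of all genes for which it held in both assays was not counted, so these 2 have no background. The median difference of the 9 was 0.39 (0.20 without WT replicate 2), against 0.01 over all genes. The summed footprint signal of the 9 overlapped, at 18535 to 28921 in WT and 27781 to 31578 in KO. Summed microglia markers were lower in KO (1875 to 2431 against 1778 to 1816) and endothelium markers higher (914 to 1101 against 1138 to 1320). Limma called 0 members of either list (1 in each at an unadjusted p below 0.05). The list medians were -0.30 and 0.23, with 2 of 7 microglia genes higher in KO and 1 of 5 endothelium genes lower. Single genes weighed in the sums: C1qa averaged 419.0 in WT and 184.4 in KO, and Flt1 303.0 and 530.2. The part of these cell types in the myelin footprints was not tested.

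Mog footprints were 377.4, 680.2 and 415.2 in WT against 875.8, 899.4 and 1170 in KO. The KO mean was 2.00 times the WT mean, and WT replicate 2 was the WT library nearest to KO. The log2 difference was 1.04 ± 0.251 (SE) with a limma adjusted p of 0.344, and 1.30 ± 0.164 without WT replicate 2, where the limma adjusted p was 0.0175. Mag footprints were 2468, 2777 and 2879 in WT against 3927, 4048 and 4634 in KO, 1.55 times higher on average while its input means differed by 2.37%. Its log2 difference was 0.63 ± 0.127 (limma adjusted p = 0.239), and 0.65 ± 0.117 without WT replicate 2 (limma adjusted p = 0.0328).

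Ugt8a footprints were 923.6, 728.4 and 1059 in WT against 1385, 1558 and 1539 in KO. The ratio of KO to WT means was 1.65 in footprints and 1.67 in input. The log2 difference of 0.74 ± 0.169 had a limma adjusted p of 0.31, and without WT replicate 2 it was 0.59 ± 0.117 with a limma adjusted p of 0.0403. Opalin footprints were 111.6, 119.1 and 139.4 in WT against 159.7, 198.9 and 196.5 in KO. The log2 difference was 0.58 ± 0.198, and 0.56 ± 0.202 without WT replicate 2. Sox10 footprints were 578.5, 523.4 and 539.0 in WT against 585.2, 591.6 and 597.3 in KO. They did not overlap, yet differed by only 8.13% in the means. The log2 difference of Sox10 was 0.11, and 0.08 without WT replicate 2.

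The other 4 genes overlapped between genotypes. Mbp footprints were 13872, 6808 and 12044 in WT against 10489, 11533 and 10892 in KO. WT replicate 2 was the lowest of the 6 libraries and the other WT libraries were the highest. The difference was 0.07 ± 0.252 with all libraries and -0.24 ± 0.0925 without WT replicate 2, and neither passed. Cldn11 had the same order, with 2676, 1502 and 2536 in WT against 2273, 2494 and 2478 in KO, and its difference went from 0.15 ± 0.225 to -0.11 ± 0.0934.

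Cnp footprints were 5303, 3232 and 6639 in WT against 5814, 6912 and 6385 in KO, again with WT replicate 2 lowest. The log2 difference of Cnp was 0.39, and 0.10 without that library. Mobp footprints were 2611, 2166 and 2274 in WT against 2271, 3343 and 2910 in KO. That difference was 0.26, and 0.20 without WT replicate 2, which was lowest by a small margin only. WT replicate 2 was therefore the lowest WT library for Mbp, Cldn11, Cnp, Mobp, Ugt8a and Sox10, and the highest for Mog. Across the 6 footprint libraries, log2 signals of Mbp and Cldn11 correlated at 0.98 (0.90 over the 5 others without WT replicate 2), and those of Mag and Opalin at 0.95 (0.95 over the 5). Mag and Mog gave 0.92, and 0.99 over the 5. The value of Mbp and Cnp turned from 0.80 to -0.46 over the 5. Mbp and Mog gave -0.34, and -0.84 over the 5. These values share library scaling and the genotype groups, and are descriptions.

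Without WT replicate 2, limma called 6.77% of 14120 genes in footprints, 3.31% of them higher and 3.46% lower in KO, against 0.223% with it. Of the 9 genes, 3 were then called higher (Mog, Mag and Ugt8a) and 0 lower. With all libraries kept and the spread estimated over 12 libraries, 2 of the 9 were called (Mog and Ugt8a) and 143 genes in all. The libraries left in WT are then the pair with AY036118 signal, so a difference in library preparation, if there was one, and the genotype cannot be told apart in these calls.

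Footprint signal over input signal, or translational efficiency, asks whether ribosome occupancy changed beyond mRNA level. Over all 12 libraries 0 of the 9 genes passed limma's test of the difference between genotypes, and 0.188% of 16527 genes did. At an unadjusted p below 0.05 there were 2, Mog and Mag, and 9.78% of all genes. The values went both ways. Mog (0.62 ± 0.282, SE), Mag (0.61 ± 0.221) and Opalin (0.45 ± 0.288) lay above 0, while Mbp (-0.46 ± 0.295), Cldn11 (-0.37 ± 0.253) and Mobp (-0.20 ± 0.241) lay below. Cnp, Ugt8a and Sox10 were at -0.01, 0.01 and 0.05, with 95% intervals of -0.67 to 0.65, -0.45 to 0.46 and -0.49 to 0.58. The smallest adjusted p of the 9 was 0.483 (limma, Mag). In the authors' deposited table, the log2 fold for the same contrast was 0.60 for Mog and for Mag, and -0.52 for Mbp, with adjusted p of 0.443, 0.276 and 0.546.

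Without WT footprint replicate 2, limma called 5.32% of 16424 genes, 2.66% higher and 2.66% lower. This again leaves only the WT footprint libraries with AY036118, and library preparation and genotype cannot be told apart. Mbp then had a lower ratio in KO, at -0.77 ± 0.126 (SE, limma adjusted p = 0.0122). Cldn11 was lower too, at -0.63 ± 0.101 (limma adjusted p = 0.0111). Mog was higher, at 0.88 ± 0.178 (limma adjusted p = 0.0236), and the other 6 did not pass. For Mbp and Cldn11 this was the pattern of higher input without higher footprints in KO, and for Mog that of footprints that differed more than input did.

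The ratio can also be read within each genotype, as occupancy of 1 gene relative to the rest of the transcriptome. It depends on coding and transcript length and on how each assay was scaled, so percentiles among protein-coding genes are given. In WT, 8 of the 9 genes had more footprint than input signal by limma, where 25.2% of 16527 genes did, and in KO 7 of 9, where 24% did. Other lists had such calls too. In WT they took in 7 of 7 astrocyte, 8 of 10 neuron and 11 of 13 mature oligodendrocyte markers. Among other myelin proteins they were 6 of 15, and among endothelium markers 1 of 5. The medians of the 9 were 0.86 and 0.84, against -0.09 over all genes and -0.02 over protein-coding genes in each genotype. With every library set to 1 protein-coding total, the median of all genes moved to -0.36 in WT and -0.30 in KO, and those of the 9 to 0.59 and 0.64. In that scaling 7 of 9 passed in WT, where Cldn11 dropped out and Mog turned to -0.19, and 6 of 9 in KO.

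Sox10 was the extreme. Its input signal averaged 53.2 ± 12.5 (SD, n = 3) in WT and its footprint signal 546.9 ± 28.4, a ratio of 10.3, and in KO the ratio was 10.8. The log2 value of 3.36 ± 0.173 (SE, limma adjusted p = 4.34e-08) stood at the 99.3rd percentile of protein-coding genes in WT, and 3.41 at the 99.4th in KO. Of the 10 other lineage transcription factors listed, 6 had more footprint than input signal and 2 less in WT by limma, where 29.1% of all genes had less. Tcf7l2 came close to Sox10 at 3.32, followed by Myrf at 2.07 and Nkx2-2 at 1.34 (a call lost under 11 of 17 alternatives), while Zfp488 was at -2.39. Sox10 input rested on an estimated 27 to 97 reads a library, and the part of depth in its ratio was not tested.

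**Figure D3:**
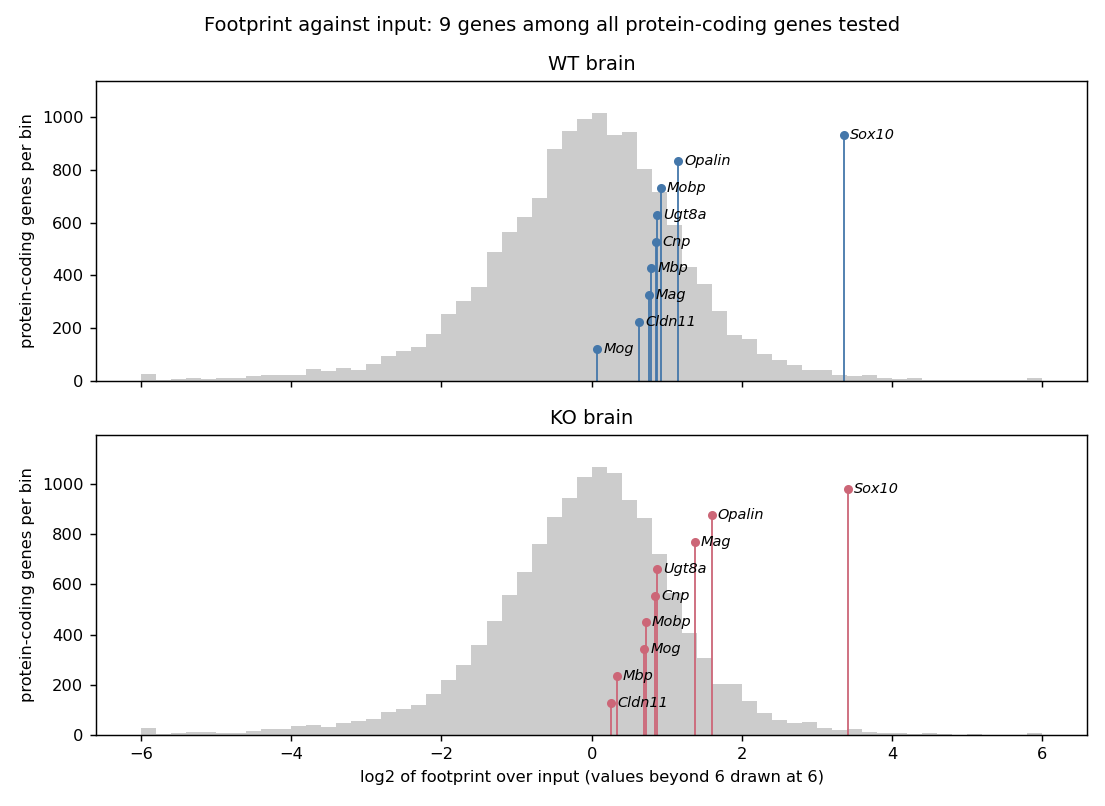
Log2 of footprint over input signal for all protein-coding genes tested (grey bars, genes per bin of the x axis) and for the 9 genes (labelled pins, with heights only for legibility) in WT and KO brain. Sox10 stands in the right tail in both, and Mag and Mog lie further right in KO than in WT.

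The other 8 were more alike. Opalin stood at the 85.9th percentile in WT and the 93.4th in KO, with log2 values of 1.15 and 1.60. Mobp, Ugt8a, Cnp, Mbp, Mag and Cldn11 lay between 0.63 and 0.92 in WT, which is the 72.4th to the 80.7th percentile. Mog was lowest in WT, at 0.07 ± 0.199 and the 53.3rd percentile, and did not pass. In KO the order differed: Mag was at 1.37 and Mog at 0.70, both called, while Mbp at 0.34 and Cldn11 at 0.26 were not (limma adjusted p = 0.2 and 0.243). Differences between genotypes are those tested above, none of which passed with all libraries. Leaving out WT footprint replicate 2 changed the spread shared by all groups, and Mbp and Cldn11 were then called in KO as well.

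Other genes of the lineage give the setting, from lists chosen with earlier results of these data known. Over all genes, an unadjusted p below 0.05 by limma was reached by 10.5% in input and 10.8% in footprints. Of the 15 other myelin proteins reported, limma called 0 in input (4 at an unadjusted p below 0.05), with a median of 0.13. In footprints it called 0 of 15 (4 at an unadjusted p below 0.05), with a median of -0.07. Without WT replicate 2 there were 3 higher (Mal, Tspan2 and Cd9) and 2 lower (Tppp and Car2), beside 3.31% higher and 3.46% lower over all genes. In calls without that library, here and below, a difference in library preparation, if there was one, and genotype cannot be told apart. Mature oligodendrocyte markers had 0 of 13 called in input and in footprints, with medians of 0.01 for each assay and -0.25 in footprints without WT replicate 2; 5 and 4 had an unadjusted p below 0.05 by limma. Without WT footprint replicate 2, Gsn (gelsolin) was called higher in footprints. Of its members, Enpp2 and Trf (transferrin) had input differences of -0.05 and 0.07. Myelin lipid synthesis genes had 0 of 10 called in input and footprints, with medians of 0.23 and 0.17 (4 and 3 at an unadjusted p below 0.05 by limma). Fasn, the fatty acid synthase, gave footprints of 5059, 1797 and 4617 in WT against 2912, 2631 and 2216 in KO, again with WT replicate 2 the lowest of its group. Its footprint difference of -0.44 became -0.91 without that library, with a limma adjusted p of 0.0221.

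Lineage transcription factors had 0 of 10 called in input and footprints, with medians of 0.13 and 0.16 (1 in each at an unadjusted p below 0.05 by limma). Olig1 had an input mean of 345.4 ± 27.0 (SD, n = 3) in WT and 447.1 ± 39.8 in KO, with no overlap and a limma adjusted p of 0.359. Among 12 precursor and newly formed oligodendrocyte genes 0 were called in input, with a median of 0.14 (1 at an unadjusted p below 0.05 by limma). Gpr17, a receptor of cells passing from precursor to oligodendrocyte, gave 258.5, 335.8 and 322.9 in WT inputs against 538.6, 583.7 and 512.4 in KO inputs. Its KO libraries lay above its WT libraries in input and in footprints, as in 10.6% and 8.46% of all genes tested in each assay. The share for both assays together was not counted. The input difference was 0.84 ± 0.127 (SE, limma adjusted p = 0.0848). In the footprint-to-input ratio, 0 members of these 5 lists were called by limma with all libraries. An unadjusted p below 0.05 was reached by 4, 1, 2, 2 and 0, beside 9.78% of all genes. Without WT footprint replicate 2, Bcas1, Tppp, Pllp, Fasn and Tcf7l2 were called with a lower ratio in KO and 0 members with a higher one, beside 2.66% of all genes in each direction.

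**Figure D4:**
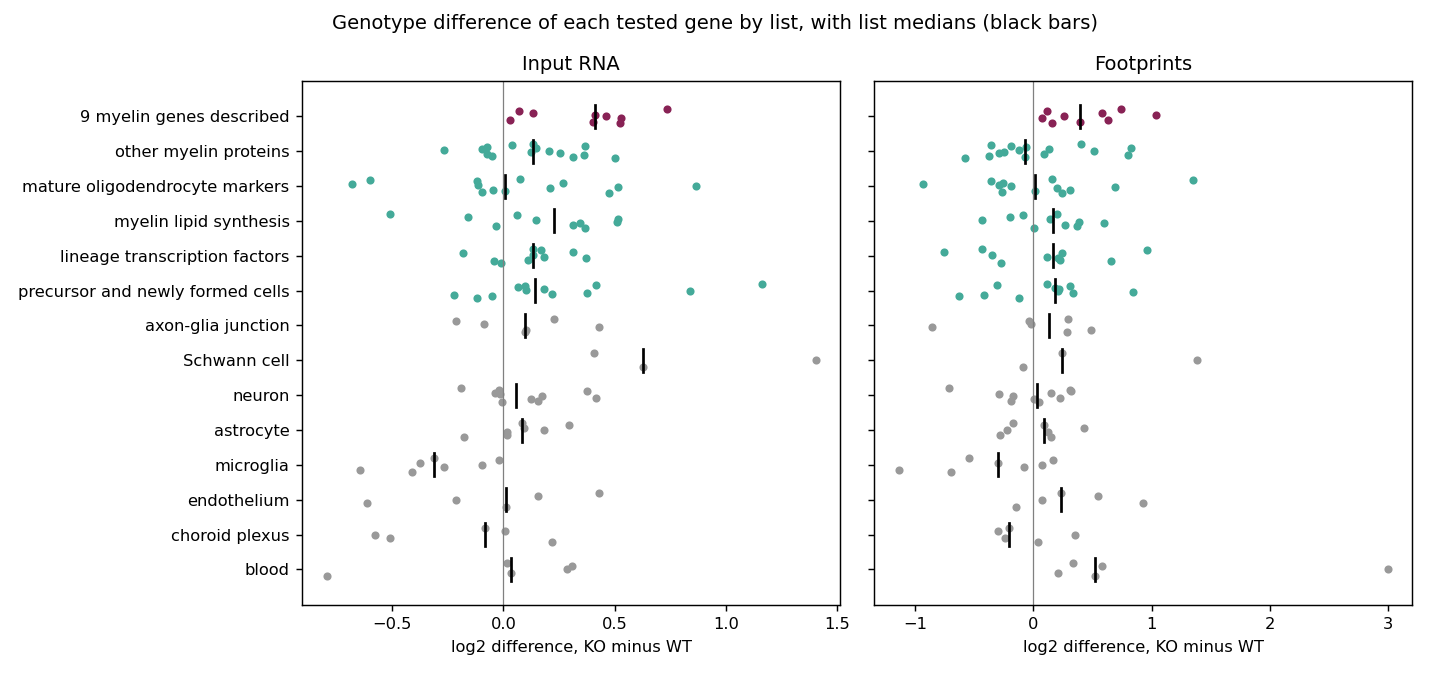
Log2 difference (KO minus WT, x axis) of each tested gene, by list, in input RNA and footprints; purple points are the 9 genes, green points other oligodendrocyte lists, grey points other cell types, and black bars list medians. The 9 genes have medians of 0.41 and 0.39, and mature oligodendrocyte markers 0.01 in each (-0.25 in footprints without WT replicate 2, not drawn).

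Markers of Schwann cells, which make peripheral myelin, were few: 3 of 5 passed the filter, and their summed input signal was 61.4 to 134.8 in WT and 80.1 to 376.7 in KO. Their part in the values of the 9 genes was not tested. Profiles over the 12 libraries were set against the mean of the 9, after removal of each assay's mean. Among the genes most like it were 9630013A20Rik (Pearson r 0.93), Tuba1a (0.93), Pcdhga8 (0.93), Gm23264 (0.91) and Gpr17 (0.91). These libraries share scaling and the genotype difference. Of the 9 themselves, Ugt8a followed the mean most closely (0.96) and Sox10 least (0.35), where the mean includes the gene itself.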

How the data were processed

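Brain input RNA and ribosome footprints were analysed from 12 libraries, 3 of each genotype for each assay. The authors deposited 1 table whose library columns hold a scaled signal, and how it was scaled was not given. Only 7.72 to 15.5% of the nonzero values were whole multiples of the lowest common value (tolerance 0.01), so no count model was used. The table also holds the authors' deposited log2 fold and adjusted p-value. Tools listed in the submitters' processing notes are STAR, DESeq, DESeq2 1.25.10, Salmon 0.12.0 and R 3.6.2; which of them made this table, the genome build, the annotation and strand use were not given in the sources used here. Depths take the lowest common value as 1 read, so they are rough estimates, and they cover counting error only.

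Limma 3.58.1 (R 4.3.3, empirical Bayes with a mean-variance trend) was fitted to log2(signal + 1), which understates changes of low genes, keeping genes whose signal reached 10 in 3 or more libraries of the comparison. Benjamini-Hochberg adjustment ran over all genes tested, at 0.05. Input and footprints each used their 6 libraries, and ratios came from 1 model over 12 libraries. The 3 mice of a genotype are separate animals, so p-values within 1 assay measure spread between mice together with library preparation. Ratio fits treated the 12 libraries as independent, though each lysate gave both assays. Their p-values therefore do not measure spread between mice. Libraries were not paired because labels carry no replicate numbers. The fit was also run on simulated data with independent noise for each gene. No simulated library departed as WT footprint replicate 2 did, so that run cannot check the effect of such a library. Alternatives were a pseudocount of 0.5 or 8, no filter, equal protein-coding totals, no trend, the spread of 12 libraries, and leaving out each library. List counts without WT footprint replicate 2 or KO input replicate 2 were added after seeing the data. The 9 genes were named throughout. From the other oligodendrocyte lists the rule named called genes, or the 2 highest in input where none was called, and only some of these are described. Gsn, Tspan2, Cd9, Car2, Bcas1, Pllp and, for footprints over input, the transcription factors were named after their values were seen. Genes and lists were chosen with earlier results of these data known. A gene outside the 9 is not reported here and was left out of its list. Testes and tissue RNA-seq libraries were not used here. Level comparisons between genes were not made, since no lengths were used.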

Additional observations from a re-analysis of the deposited data

How the results depend on the processing

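No paired analysis was possible because the labels carry no replicate numbers. Of 675 alternative values for the 9 genes, 635 kept direction and side of the threshold, 26 changed sign, 11 gained a limma call and 3 lost one; the cause was not tested.

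Genes called in input fell from 39 to between 7 and 24 with 1 library left out, and with a pseudocount of 8 the 9 genes had 1 call (Cldn11) in place of 0. Footprint calls went from 32 to 21 (pseudocount 0.5), to 143 (spread over 12 libraries; 2 of the 9 genes, Mog and Ugt8a) and to between 0 (without each KO library in turn) and 956 (without WT replicate 2) with 1 library left out, and calls among the 9 lay between 0 and 3. Calls in the footprint-to-input ratio went from 31 to 48 (no trend) and to between 15 and 874 with 1 library left out, with 0 to 3 of the 9.

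Signs turned where the log2 difference was small. With equal protein-coding totals, Mag in brain input KO against WT was -0.000348, with 0.044 for Cnp in the genotype difference of the ratio and -0.19 for Mog in footprint over input in WT, where Cldn11 lost its call (limma adjusted p = 0.0868), as did Mog in footprint against input in KO brain (limma adjusted p = 0.0657; 0.0517 without KO footprint replicate 3). With 1 library left out, input differences ranged over -0.084 to 0.19 (Mag), -7.02e-05 to 0.33 (Opalin), -0.14 to 0.20 (Sox10), and -0.066 to 0.11 for Tppp. Footprint differences ranged over -0.24 to 0.28 (Mbp) and -0.11 to 0.31 (Cldn11). Ratio differences ranged over -0.30 to 0.21 (Cnp), -0.14 to 0.13 (Ugt8a), -0.089 to 0.25 (Sox10) and -0.21 to 0.17 (Gpr17, also -0.011 with a pseudocount of 8). Mog in footprint over input in WT ranged over -0.19 to 0.24. Estimated input reads were lowest for Opalin and Sox10, and the part of depth in these ranges was not tested.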
